A study of Mus musculus with 4 samples.

Results

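T cells were taken from single-cell RNA sequencing of mouse adipose tissue and compared between the visceral (intraperitoneal, IP) and the subcutaneous (SC) depot, first within WT and again within KO. A barcode counted as a T cell when it held at least 200 genes, at most 25% mitochondrial UMIs (unique molecular identifiers, each read as 1 captured RNA molecule), at least 2 UMIs of Cd3e, Cd3d and Cd3g together, and no UMI of the B cell gene Cd79a or the stromal gene Dcn. By this rule 1781 of 4927 barcodes were T cells. WT mice were Tie2e-cre, TERT+/+ and mTmG, and KO mice were Tie2e-cre, TERTfl/fl and mTmG. All mice were male, 7 months old and fed a high-fat diet (HFD) for 5 months. Every group thus carried the recombinase under the Tie2e promoter, which the study describes as specific to endothelial cells, and the mTmG reporter, which switches from tdTomato to GFP where the recombinase has acted. The study analysed inguinal fat as subcutaneous and gonadal fat as visceral tissue, and released the cells with enzymes. There were 4 libraries, 1 per group, and the number of mice behind each is not given in the sources used here. With 1 library per group there was no replicate and no test, so each ratio carries an exact 95% interval for counting error only, and a pattern was followed by asking whether it was seen in WT and in KO, whose libraries are separate.

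T cells read antigen through a T cell receptor that is attached to the CD3 proteins. Naive T cells travel through blood and lymph nodes, guided by receptors such as Ccr7 and S1pr1, and keep a programme of the transcription factors Lef1, Tcf7, Klf2 and Satb1. After meeting antigen they lose that programme, gain adhesion molecules and calcium-binding S100 proteins, and may become effector cells that secrete interferon gamma, chemokines and granzymes under the factors T-bet (Tbx21) and Eomes. Gamma delta T cells carry a different receptor, and many settle in tissues. Visceral fat in obesity is known for effector T cells and for few regulatory T cells, the Foxp3-bearing cells that restrain the others.

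Visceral T cells held more effector and cytotoxic transcripts and fewer naive transcripts than subcutaneous T cells, in WT and in KO alike. Gzmk, Tbx21, Ifng, Cxcr3, Gzmb and Ccl5 had log2 ratios of IP over SC of 2.25 or more in each genotype. Igfbp4, Klf2, Lef1, Ccr7 and Rgs10 had log2 ratios of -1.40 or lower. The share of T cells in a naive gate was 24.3% in WT IP against 72.1% in WT SC, and 15.1% in KO IP against 76.4% in KO SC.

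The promoters of a few genes that lead this difference are shown because many effector genes of T cells are known targets of T-box factors such as T-bet. The 250 bases before the transcription start are taken from RefSeq on GRCm38.p6 and run 5′ to 3′ on the strand of the gene. Capitals mark the T-box core letters TCACAC on either strand. Gzmk lies on the minus strand at chr13:113180966-113181215, Cxcr3 on the minus strand at chrX:101734148-101734397 and Ifng on the plus strand at chr10:118440796-118441045. The RefSeq starts of Gzmk and Cxcr3 lie inside the longer GENCODE gene models.
Gzmk: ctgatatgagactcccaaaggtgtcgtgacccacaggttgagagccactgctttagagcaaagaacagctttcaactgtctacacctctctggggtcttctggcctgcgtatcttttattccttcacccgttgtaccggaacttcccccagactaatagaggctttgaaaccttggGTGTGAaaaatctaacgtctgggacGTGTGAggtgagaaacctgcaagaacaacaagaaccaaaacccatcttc
Cxcr3: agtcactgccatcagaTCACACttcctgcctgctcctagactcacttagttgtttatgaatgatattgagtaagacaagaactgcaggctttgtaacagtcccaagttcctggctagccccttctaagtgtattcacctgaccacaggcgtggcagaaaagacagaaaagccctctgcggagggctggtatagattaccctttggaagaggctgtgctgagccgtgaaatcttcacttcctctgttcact
Ifng: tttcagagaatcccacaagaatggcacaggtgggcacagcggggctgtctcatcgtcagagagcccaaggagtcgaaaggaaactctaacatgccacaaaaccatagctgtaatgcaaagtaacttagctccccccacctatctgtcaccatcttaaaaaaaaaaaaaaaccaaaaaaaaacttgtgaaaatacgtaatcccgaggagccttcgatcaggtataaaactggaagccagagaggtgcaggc
The letters occurred 2 times before Gzmk, 1 time before Cxcr3 and not in this window of Ifng. They were also absent from the same window of Tbx21, which is not shown. Across 27025 genes with a promoter of this length, 12.2% held them. Among the genes at least 2-fold higher in IP in both genotypes, 157 of 201 had such a promoter and 30 of these, or 19.1% (13.3% to 26.1%), held the letters. Of the lower genes 68 of 86 had one and 10, or 14.7% (7.28% to 25.4%), held them. The intervals of the higher and lower genes overlapped. The core of the TCF/LEF factors, CTTTGA on either strand, was found in 14% of all promoters, in 15 of the 157 (9.55%) and in 4 of the 68 (5.88%). Lef1, Klf2, Igfbp4 and Satb1 did not hold it in the window of their first listed start. The pair of cores can share only an end letter. These matches are a description of letters and not of binding.

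The T cells numbered 439 of 971 kept barcodes in WT SC (45.2%), 111 of 675 in WT IP (16.4%), 1125 of 1969 in KO SC (57.1%) and 106 of 521 in KO IP (20.3%). Their median depth was 7659 to 9165 UMIs, and their summed UMIs ran from 920934 in WT IP to 9333556 in KO SC. The smaller visceral sums set the precision of every ratio. T cell receptor constant genes, which the rule did not use, were seen in 99.1% to 100% of T cells against 1.21% to 6.38% of stromal barcodes, whose median depth was 5451 to 23180 UMIs. Barcodes over 30000 UMIs numbered 8 in WT SC, 0 in WT IP, 4 in KO SC and 1 in KO IP. The KO IP barcode held 107406 UMIs, 11.2% of all T cell UMIs of its library, with 109 UMIs of the proliferation gene Mki67. WT IP and KO SC shared 93 barcode sequences, and the WT SC and KO IP and the KO SC and KO IP pairs shared 1 each, but no shared sequence was a T cell in both libraries. Tert, the targeted gene, had 2 UMIs in the T cells of WT SC and 0 in those of the other 3 libraries, so the deletion could not be checked in T cells. The GFP coding sequence was seen in 67.4% of T cells in WT SC, 71.2% in WT IP, 40.6% in KO SC and 39.6% in KO IP. In stromal barcodes its share was 44.7%, 34.4%, 37.4% and 17.7% in the same order.

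Transcripts that belong to other cells moved with depot in the T cell sums and stand here once, as CPM (UMIs divided by the T cell sum of the library and scaled to the same total in each) in WT SC, WT IP, KO SC and KO IP. The 8 NK cell markers summed to 117, 528, 56.2 and 283, and none was at 0 in all libraries. NK cells share many genes with cytotoxic T cells. Their defining receptor gene Ncr1 was seen in 0 T cells of WT SC, 7 of WT IP, 3 of KO SC and 2 of KO IP. Klrb1c, another NK receptor gene, was seen in 5.24%, 16.2%, 3.38% and 17.9% of T cells in the same order. Haemoglobin genes summed to 2843, 6157, 742 and 6104, held mostly by 3, 1, 3 and 1 barcodes with over 100 haemoglobin UMIs. The 8 B cell markers summed to 111, 47.8, 72.3 and 53.1, and the 8 dendritic and MHC class II markers to 153, 27.1, 44.1 and 21.9, with Cd209a at 0 in all. Macrophage markers summed to 116, 55.4, 103 and 35.4, and stromal markers to 26.7, 64.1, 23.1 and 53.1. Endothelial markers summed to 145, 72.8, 123 and 130, with Cldn5 at 0 in all. Lymph node stroma markers were at 0 to 2 UMIs in each library. Whether the subcutaneous pads held a lymph node is not stated, and the part of any of these in the results was not tested, except where a value is given below.

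A gene was compared when it had at least 50 UMIs over IP and SC together in each genotype, which left 7684 genes. In WT, 298 genes (3.88%) were at least 2-fold higher in IP and 339 (4.41%) at least 2-fold lower. In KO, 885 (11.5%) were higher and 267 (3.47%) lower. In both genotypes, 201 genes (2.62%) were higher and 86 (1.12%) lower, while 33 differed 2-fold in opposite ways. Across genes the WT and KO log2 ratios had Pearson r of 0.454 and Spearman rho of 0.365, and 60.9% had the same sign. Genes are not independent replicates. The median log2 ratio of all compared genes was 0.02 in WT and 0.26 in KO. Higher genes were 70% of those that differed in both genotypes. The share was 56.6% after median-of-ratios scaling, which moved the KO median to -0.06. It was 53.3% when mitochondrially encoded and ribosomal genes were left out of the total. In the other settings it lay between 69.3%, with each cell weighted equally, and 84.4%, with no minimum of UMIs.

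**Figure D1:**
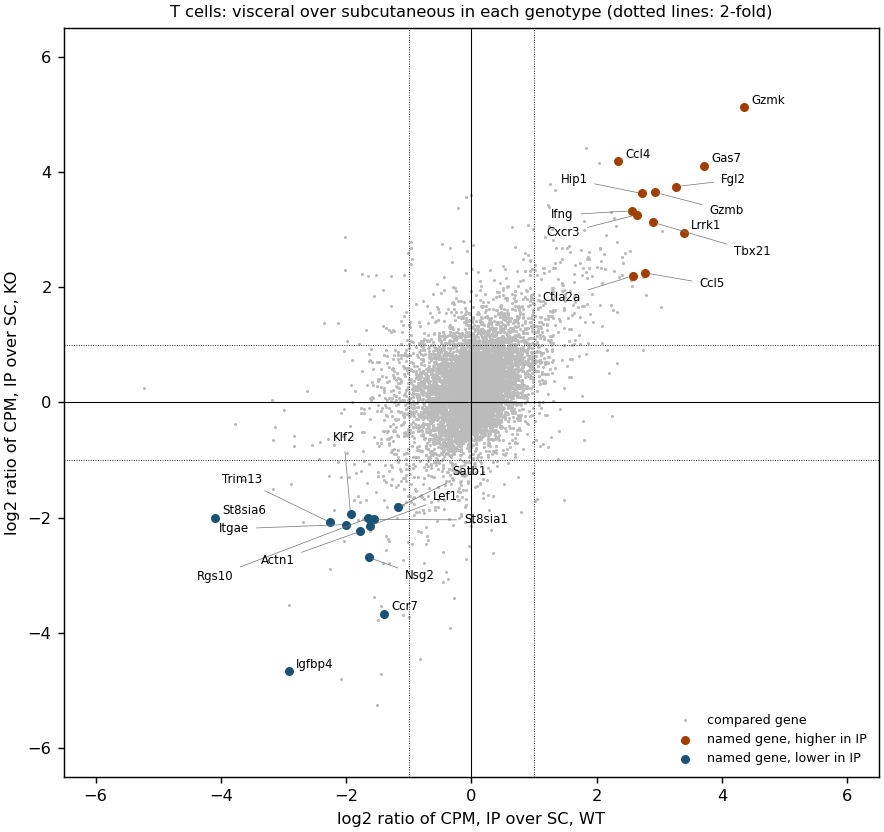
Each point is 1 of 7684 compared genes, with the log2 ratio of IP over SC in WT on the x axis and in KO on the y axis. Brown points are the 12 named higher genes and blue points the 12 named lower genes, which lie beyond 2-fold in both genotypes, from Gzmk at 4.35 and 5.13 to Igfbp4 at -2.91 and -4.67.

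The 24 genes named by rank were those with the largest ratio after allowing for counting error in both genotypes. Gzmk (chromosome 13, 113171608 to 113225908, minus strand), a granzyme of memory-like CD8 T cells, led the higher genes. It stood at 3.12 CPM in WT SC (14 UMIs), 65.2 in WT IP (60 UMIs), 2.04 in KO SC (19 UMIs) and 72.9 in KO IP (70 UMIs). Both visceral libraries were thus far above both subcutaneous ones. The log2 ratio was 4.35 in WT (interval 3.53 to 5.34) and 5.13 in KO (4.41 to 5.98). Leaving out barcodes over 30000 UMIs gave 4.21 and 4.64. Gzmb, the granzyme of killing granules, was at 10.2, 78.2, 9.64 and 121 CPM in WT SC, WT IP, KO SC and KO IP. Its ratios were 2.93 (2.38 to 3.50) and 3.65 (3.24 to 4.06).

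The type 1 programme was higher around them. Tbx21 (chromosome 11, 97098071 to 97115331, minus strand), which encodes T-bet, was at 23.8 CPM in WT SC, 178 in WT IP, 11.7 in KO SC and 102 in KO IP. That is 2.90 (2.54 to 3.27) on the log2 scale in WT and 3.13 (2.72 to 3.53) in KO. Ifng, which encodes interferon gamma, was at 27.4, 163, 8.57 and 86.4 CPM in the same order, with ratios of 2.57 (2.22 to 2.93) and 3.33 (2.87 to 3.80). Cxcr3, the chemokine receptor that T-bet is known to induce, was at 13.6, 84.7, 8.14 and 78.1 CPM. The groups kept the same order for all 3 genes, with WT above KO within each depot. For Cxcr3 in IP the KO over WT ratio of -0.12 had an interval that held 0 (-0.59 to 0.36).

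Ccl5, a chemokine of cytotoxic cells, was the most abundant of the named higher genes in each library. It was at 594 CPM in WT SC, 4049 in WT IP, 589 in KO SC and 2803 in KO IP. The subcutaneous libraries were alike, and the IP over SC ratios were 2.77 (2.70 to 2.84) and 2.25 (2.18 to 2.32). Ccl4, another chemokine from the same chemokine cluster on chromosome 11 (the genes are 132066 bases apart), was at 60.3, 305, 3.96 and 72.9 CPM. For Ccl4 the KO IP level was close to that of WT SC, so its depot difference was seen only within a genotype.

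The other named higher genes were less known for T cells. Fgl2, a fibrinogen-like protein made by regulatory and memory T cells, was at 11.4 CPM in both SC libraries, 110 in WT IP and 153 in KO IP. Gas7, a cytoskeletal adaptor, was at 3.34, 44.5, 2.14 and 37.5 CPM in WT SC, WT IP, KO SC and KO IP. Hip1, an endocytic adaptor, was at 16.3, 107, 12.6 and 156 CPM, and Lrrk1, a kinase, at 6.68, 70.6, 4.71 and 36.4 CPM. Gas7, Fgl2, Lrrk1 and Hip1 were also expressed in stromal barcodes, at 262 to 433, 54.3 to 213, 109 to 173 and 33.5 to 46.7 CPM. Their stromal IP over SC ratios in WT and KO were -0.39 and -0.60 for Gas7 and -0.23 and -1.97 for Fgl2. For Lrrk1 they were -0.06 and 0.66, and for Hip1 0.02 and 0.26. Ctla2a, a protease inhibitor, was at 118, 705, 94.4 and 434 CPM.

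**Figure D2:**
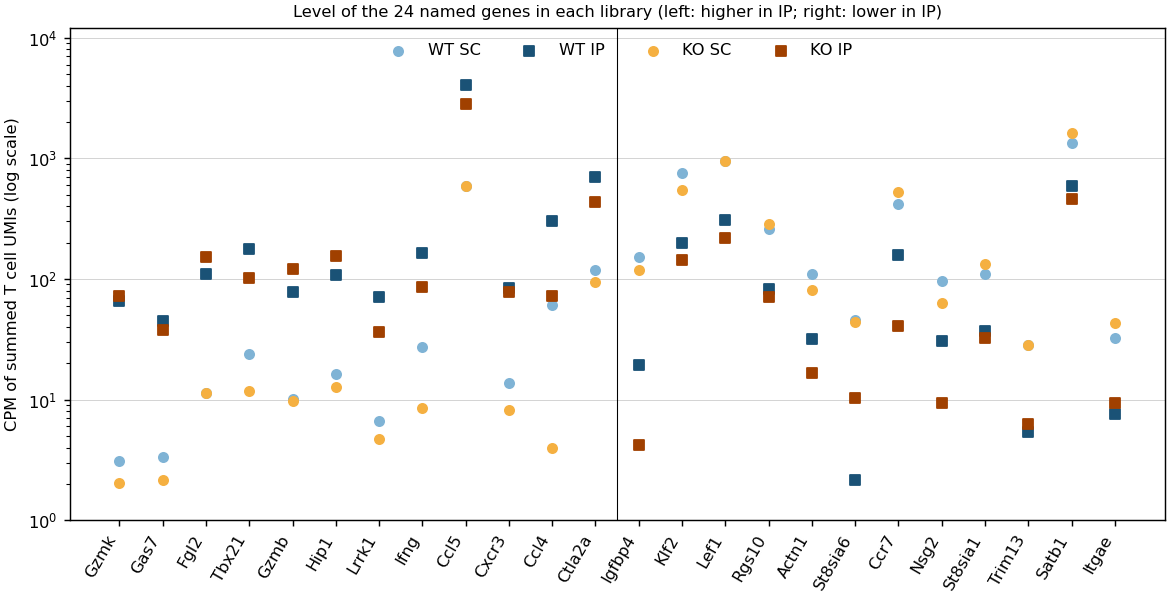
Points give the CPM of the summed T cell UMIs (log scale) for the 24 named genes, with circles for SC and squares for IP, and blue for WT and brown or orange for KO. For each of the 12 genes on the left both squares lie above both circles, and for each of the 12 on the right both lie below. Where SC values nearly coincide, as for Ccl5 and Lef1, the KO circle covers the WT circle.

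The lower genes were led by markers of naive and circulating cells. Igfbp4, an insulin-like growth factor binding protein that marks naive T cells, was at 151 CPM in WT SC (677 UMIs), 19.5 in WT IP (18 UMIs), 119 in KO SC (1112 UMIs) and 4.17 in KO IP (4 UMIs). Its ratios were -2.91 (-3.71 to -2.28) and -4.67 (-6.72 to -3.48). In stromal barcodes the same gene was higher in IP, with ratios of 0.52 and 0.51. Klf2 (chromosome 8, 72319033 to 72321656, plus strand), the factor that maintains S1pr1 and lymph node traffic, was at 751, 197, 548 and 144 CPM in WT SC, WT IP, KO SC and KO IP. The ratio was -1.93 in WT (-2.16 to -1.72) and -1.93 in KO (-2.18 to -1.69).

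Lef1 was at 957 CPM in WT SC and 958 in KO SC against 311 in WT IP and 218 in KO IP. Satb1, a chromatin organiser of naive T cells, was at 1341, 595, 1615 and 457 CPM in WT SC, WT IP, KO SC and KO IP. Ccr7, which lies 89804 bases from Igfbp4 on chromosome 11, was at 421, 159, 524 and 40.6 CPM. Its ratio was -1.40 (-1.66 to -1.16) in WT and -3.67 (-4.18 to -3.24) in KO, and these intervals did not overlap. Actn1 and Nsg2, genes of naive T cells, were lower too, with ratios of -1.78 and -2.24 for Actn1 and -1.64 and -2.69 for Nsg2. Rgs10, a regulator of G protein signalling, was at 260, 82.5, 287 and 70.8 CPM.

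A pair of sialyltransferases stood among the lower genes. St8sia6 had 207 UMIs in WT SC, 2 in WT IP, 408 in KO SC and 10 in KO IP, or 46.1, 2.17, 43.7 and 10.4 CPM. With 2 UMIs in WT IP its WT ratio of -4.09 had a wide interval (-7.46 to -2.54). St8sia1, which makes the ganglioside GD3, was at 110, 36.9, 134 and 32.3 CPM. Trim13, a ubiquitin ligase, was at 28.5, 5.43, 28.6 and 6.25 CPM. Itgae (chromosome 11, 73090583 to 73147446, plus strand), the CD103 integrin of epithelial resident T cells, was at 32.7 CPM in WT SC, 7.6 in WT IP, 43 in KO SC and 9.37 in KO IP. Its ratios were -2.01 (-3.45 to -1.03) and -2.12 (-3.34 to -1.26).

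Gene lists placed these genes in their groups. The lists were chosen with earlier results of these data known, so the counts are a description beside the 2.62% and 1.12% of all genes. Of 22 compared genes of the cytotoxic and type 1 list, 14 were at least 2-fold higher in both genotypes and 0 lower, with median log2 ratios of 2.15 in WT and 1.77 in KO. Besides the genes above these were Eomes, Nkg7, Fasl, Klrk1, Klrc1, Klrc2 and Il18rap. Fasl, the death ligand, was at 20.7, 111, 16 and 85.4 CPM in WT SC, WT IP, KO SC and KO IP. Klrk1, Klrc1 and Klrc2, receptors that T cells share with NK cells, lie side by side on chromosome 6, and their ratios ran from 1.57 to 2.32. Prf1, perforin, had ratios of 1.56 in WT and 0.44 in KO, where the interval held 0 (-0.42 to 1.14). Klrd1 differed in sign, at 1.09 and -0.75.

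Of 20 memory and activation genes, 10 were higher and 0 lower, with medians of 1.01 and 1.84. S100a4 was at 505 CPM in WT SC, 1023 in WT IP, 309 in KO SC and 1518 in KO IP, and S100a6 at 478, 1295, 338 and 1895. Ahnak, a large scaffold protein of memory T cells, had ratios of 1.86 and 2.53. Itgb1, the beta 1 integrin, had 1.65 and 2.39, and its partner Itga4 of the residency list 1.64 and 2.10. Cd44, the standard marker of experienced T cells, had 0.99 and 1.57 and so missed the 2-fold limit in WT. Capg went opposite ways, at -0.79 and 1.04.

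Of 17 naive and lymphoid homing genes, 0 were higher and 9 lower, with medians of -1.05 and -1.62. S1pr1, the receptor for exit from lymph nodes, was at 229, 110, 194 and 86.4 CPM in WT SC, WT IP, KO SC and KO IP, and Il6ra at 66.3, 18.5, 43.3 and 13.5. Tcf7 had -0.49 and -0.37, and Il7r 0.01 and 0.74, so members of the list differed in size and Il7r had no lower value in IP.

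The tissue residency list was mixed. Of 14 compared genes, 4 were higher (Itga4, Prdm1, Bhlhe40 and Xcl1), 1 lower (Itgae) and 9 neither, with medians of 0.83 and 0.71. Prdm1, which encodes Blimp-1, had ratios of 2.13 and 2.31. Bhlhe40 was at 55.9, 174, 48.9 and 229 CPM in WT SC, WT IP, KO SC and KO IP. Cd69 had ratios of 0.21 and 0.07, and Cxcr6 0.91 and 0.73.

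Receptors for the signals of type 1 immunity were among the higher genes. Of 23 cytokine receptors, 5 were higher (Il10ra, Il12rb2, Il18r1, Il18rap and Ifngr1) and 1 lower (Il6ra). Ifngr2, the other interferon gamma receptor gene, was not higher in the CD8 and CD4 gates described below. At full depth it was at 110, 52.2, 131 and 30.3 CPM in CD8 cells of WT SC, WT IP, KO SC and KO IP. In CD4 cells without Foxp3 it was at 163, 44.1, 210 and 51.1 CPM. The visceral values rested on 9 to 19 UMIs. Il12rb2, the inducible chain of the IL-12 receptor, was at 25.2, 81.4, 29 and 90.6 CPM in WT SC, WT IP, KO SC and KO IP. Of 13 chemokine receptors, Cxcr3 was higher and Ccr7 and S1pr1 lower. Of 14 checkpoint genes, Pdcd1, Tigit, Cd160 and Entpd1 were higher and Btla lower. Entpd1 was also higher in visceral stromal barcodes, with ratios of 1.13 and 3.47. Pdcd1, which encodes PD-1, was at 18, 98.8, 29.7 and 180 CPM, with a ratio of 2.45 (2.01 to 2.90) in WT and an interval of 2.32 to 2.88 in KO.

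Of 14 compared lipid handling genes, Plin2, which coats lipid droplets, was higher, and Scd2, Abca1 and Abcg1 were lower. Plin2 was at 15.1, 41.3, 13.2 and 84.3 CPM in WT SC, WT IP, KO SC and KO IP. Abcg1, a cholesterol exporter, was at 67.5, 29.3, 58.3 and 28.1 CPM, with ratios of -1.18 and -1.03. Without barcodes over 30000 UMIs, Abca1 and Abcg1 had KO ratios of -0.94 and -0.89 and were no longer 2-fold lower in both genotypes.

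Of 16 gamma delta and type 17 genes, 7 were higher and 0 lower, with medians of 0.97 and 1.63. They were Trdc, Tcrg-C1, Tcrg-C2, Tcrg-C4, Trdv4, Maf and Il18r1, which are mostly constant and variable genes of the gamma delta receptor. Of 14 integrin and adhesion genes, Itgb2, Itgb1 and Itga4 were higher and Itgae lower. Only Gzmb was called among 9 adipose regulatory T cell genes. None was called among 3 type 2 genes, whose medians of -1.11 and 1.23 had opposite signs.

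Other lists had no call or a single call. None of 22 T cell receptor signalling genes, 18 interferon stimulated genes, 15 glycolysis genes, 28 nuclear OXPHOS genes or 13 mitochondrially encoded genes was 2-fold higher or lower in both genotypes. Their medians lay between -0.25 and 0.21 for WT and between -0.42 and 0.50 for KO. Of 23 immediate early and dissociation genes, which respond to handling of tissue, only Fosb was called, with list medians of 0.13 and 0.34. The proliferation list had medians of -0.41 in WT and 1.09 in KO with all T cells, and 0.38 and 0.03 without barcodes over 30000 UMIs, so those barcodes set its KO value.

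**Figure D3:**
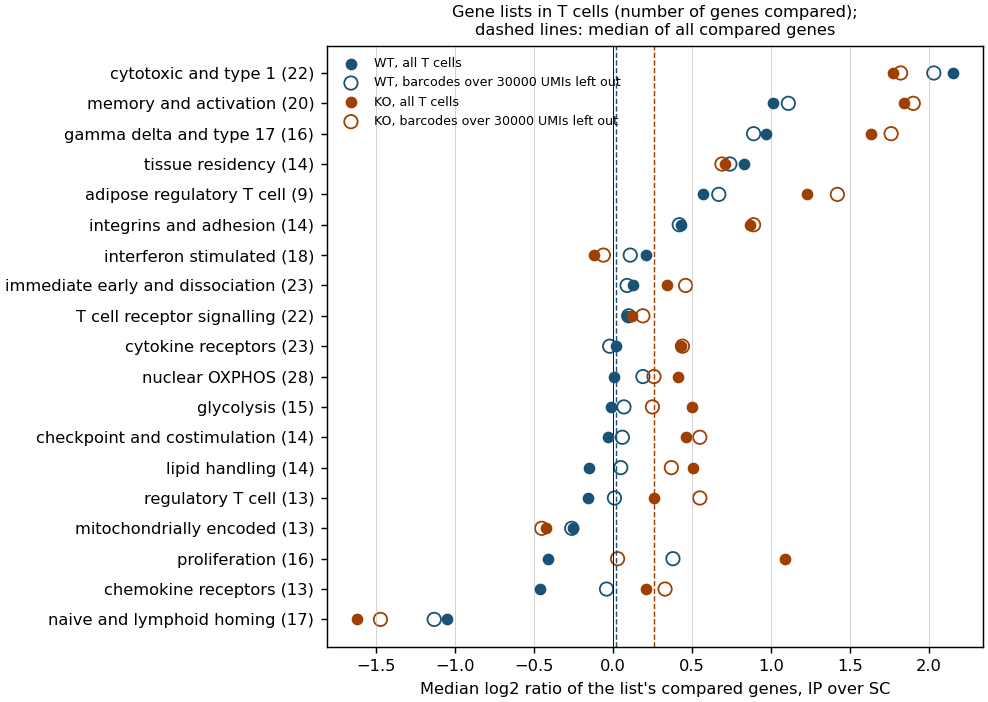
Points give the median log2 ratio of IP over SC for each gene list, in WT (blue) and KO (brown), filled for all T cells and open without barcodes over 30000 UMIs. The cytotoxic list lies at 2.15 and 1.77 and the naive list at -1.05 and -1.62, while the proliferation list moves from 1.09 to 0.03 in KO when the barcodes are left out.

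Gates on single cells restate the depot difference as shares of T cells. The naive, experienced, effector and gamma delta gates use genes called above (Ccr7, Lef1, S100a4, Ccl5, Nkg7 and Trdc). Their direction is therefore not separate support. For gates each cell was thinned at random to 2000 UMIs, so that depth was equal, which left out 5 cells of WT SC and 7 of KO SC. The naive gate (at least 1 UMI of Ccr7 or Lef1 and none of S100a4) held 313 of 434 cells in WT SC (72.1%, interval 67.6% to 76.3%) and 27 of 111 in WT IP (24.3%, 16.7% to 33.4%). In KO it held 854 of 1118 in SC (76.4%, 73.8% to 78.8%) and 16 of 106 in IP (15.1%, 8.88% to 23.4%). The log2 ratio of the shares was -1.54 (-2.19 to -1.0) in WT and -2.30 (-3.15 to -1.63) in KO. B cells, which also express Ccr7, were in the gate at 34.8% to 61.6%, and stromal barcodes at 0% to 1.19%.

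The experienced gate (S100a4 present and Ccr7 and Lef1 absent) held 13.8% of T cells in WT SC, 45% in WT IP, 13.4% in KO SC and 53.8% in KO IP. Its ratios were 1.71 (1.13 to 2.27) and 2.01 (1.54 to 2.45). Stromal barcodes, which express S100a4, were in this gate at 11.3% to 16.7%. The effector gate (at least 2 UMIs of Ccl5 and Nkg7) held 17.1%, 56.8%, 10.9% and 35.8% in the same order, with ratios of 1.74 (1.23 to 2.24) and 1.73 (1.15 to 2.25). Stromal barcodes were in it at 0% to 0.855% and B cells at 0%. Without thinning the effector shares were 39.6%, 70.3%, 31.1% and 41.5%, and the ratios 0.83 and 0.43.

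The gamma delta gate (Trdc present, no Cd4, Cd8a or Cd8b1) held 31 of 434 T cells in WT SC (7.14%), 18 of 111 in WT IP (16.2%), 116 of 1118 in KO SC (10.4%) and 30 of 106 in KO IP (28.3%). The ratios were 1.20 (0.26 to 2.07) and 1.47 (0.82 to 2.04). Trdc itself, the delta constant gene, was at 172, 366, 247 and 695 CPM in WT SC, WT IP, KO SC and KO IP. When barcodes with more than 2 UMIs of other lineages' markers were left out, the WT ratio of the gate was 0.12. The CD8 gate held 31.8%, 20.7%, 26% and 20.8%, and the CD4 gate 9.45%, 16.2%, 12.5% and 13.2%. Their ratios had intervals that held 0 in both genotypes, from -1.32 to 0.30 for CD8 and from -0.83 to 1.61 for CD4, so a difference up to these sizes in either depot was not detectable with 111 and 106 visceral cells. Without thinning, the CD8 gate held 42.5% in KO SC (39.6% to 45.4%) and 24.5% in KO IP (16.7% to 33.8%), which did not overlap, while the WT intervals did (36.1% to 45.5% and 23.9% to 42%). The CD4 ratios without thinning were -0.03 in WT and -0.30 in KO, and the KO ratio was -1.66 with cells thinned to 1000 UMIs, so the CD4 gate had no stable direction.

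**Figure D4:**
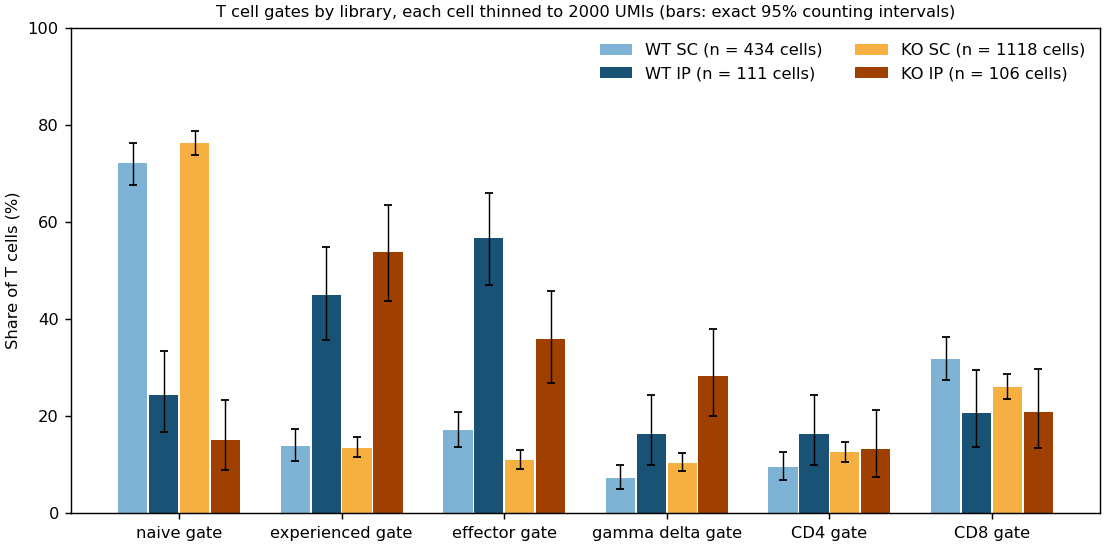
Bars give the share of T cells (%) in 6 gates for the 4 libraries after thinning each cell to 2000 UMIs, with exact 95% intervals for counting error. The naive bars are 72.1% and 76.4% in SC against 24.3% and 15.1% in IP, and the intervals of the CD4 and CD8 bars overlap between depots within each genotype.

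Foxp3 UMIs were few. Foxp3 was seen in 24 of 439 T cells of WT SC (5.47%, 3.53% to 8.03%), 0 of 111 of WT IP, which allows a share of cells with a UMI of up to 2.7%, 43 of 1125 of KO SC (3.82%, 2.78% to 5.11%) and 2 of 106 of KO IP (1.89%, 0.229% to 6.65%). In stromal barcodes it was seen in 0% to 0.347%. These shares count cells with a UMI and do not bound the cells that express the gene. The KO intervals overlapped, and the summed Foxp3 level was 15.2 CPM in KO SC and 17.7 in KO IP, where 2 cells held 17 UMIs. Of 13 compared regulatory T cell genes, Tigit, Nrp1 and Entpd1 were higher and 0 lower. Ctla4 had ratios of -0.84 and -0.76. Il2ra, the high-affinity IL-2 receptor chain, stood apart in KO IP, where 37.7% of T cells held it against 12.6% to 13.7% in the other libraries. In stromal barcodes the share was 7.26% in KO IP and 1.97% to 3.19% in the other libraries.

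The CD8 and CD4 gates had 26 and 23 cells in KO IP, too few for ratios across genes, so a few genes are given as cells with a UMI at full depth, where the median depth was 6882 to 10946 UMIs for CD8 and 6181 to 7841 for CD4. Gzmk was seen in 3 of 179 CD8 cells of WT SC, 15 of 36 of WT IP (41.7%, 25.5% to 59.2%), 5 of 478 of KO SC and 11 of 26 of KO IP (42.3%, 23.4% to 63.1%). In all of the stromal barcodes together Gzmk had 3 UMIs, in WT IP. Among CD4 cells Gzmk was seen in 0 of 123, 4 of 30, 0 of 307 and 2 of 23. Nearly every T cell with Gzmk also held Ccl5, in both depots. In IP this was 22 of 23 in WT and 15 of 15 in KO. In SC it was 4 of 4 in WT and 6 of 6 in KO. Over all T cells Ccl5 was seen in 13.2% in WT SC, 57.7% in WT IP, 10.5% in KO SC and 38.7% in KO IP. In visceral CD8 cells it was seen in 58.3% in WT and 88.5% in KO.

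Tbx21 was not confined to CD8 cells. It was seen in 16.2% of CD8 cells in WT SC, 50% in WT IP, 7.74% in KO SC and 69.2% in KO IP. In CD4 cells the shares were 4.88%, 53.3%, 2.61% and 30.4%. Ifng in CD4 cells was at 5.69%, 53.3%, 1.63% and 26.1%, and Cxcr3 at 7.32%, 60%, 4.56% and 47.8%. For these 3 genes the CD4 intervals of IP and SC, which cover counting error only, did not overlap in either genotype. The nearest bounds were those of Ifng in KO, at 3.76% in SC and 10.2% in IP. Tbx21 and Ifng occurred together in 34 of 111 T cells of WT IP and 17 of 106 of KO IP. Gzmb in IP was seen in CD8 cells (19.4% in WT and 42.3% in KO) and in 0 of 30 and 0 of 23 CD4 cells, which allows up to 10% and 13% of cells with a UMI, against 3 of 123 and 6 of 307 in SC. It was not confined to CD8 cells. Visceral cells with no UMI of Cd4, Cd8a, Cd8b1 or Trdc held it in 8 of 29 in WT (37 UMIs) and 4 of 23 in KO (62 UMIs). Its level there was 175 and 372 CPM, against 87.9 and 178 CPM in visceral CD8 cells.

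Itgae was most often seen in subcutaneous gamma delta cells. It was seen in 50% of gamma delta cells of WT SC (16 of 32, 31.9% to 68.1%) and in 6.25% of WT IP (1 of 16, 0.158% to 30.2%). In KO the shares were 63.6% in SC (77 of 121, 54.4% to 72.2%) and 9.09% in IP (3 of 33, 1.92% to 24.3%). These cells held the highest Itgae level of the 3 gates in SC, at 86.9 and 200 CPM. Il17a, the cytokine of one gamma delta lineage, was seen in 21.9% of gamma delta cells in WT SC, 25% in WT IP, 69.4% in KO SC and 27.3% in KO IP. The WT intervals overlapped (9.28% to 40% and 7.27% to 52.4%) and the KO intervals did not (60.4% to 77.5% and 13.3% to 45.5%). Fgl2 was seen in 21.9%, 43.8%, 29.8% and 75.8%, where the WT intervals overlapped (9.28% to 40% and 19.8% to 70.1%) and the KO intervals did not (21.8% to 38.7% and 57.7% to 88.9%). Stromal barcodes thinned to 2000 UMIs held Fgl2 at 9.91% to 25.6%.

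The share of naive cells differed between depots, so ratios were also taken within T cells that held an S100a4 UMI, 83 in WT SC, 68 in WT IP, 197 in KO SC and 79 in KO IP. This gate was added after the data were seen. Of 4315 genes compared in it, 53 (1.23%) were at least 2-fold higher in IP in both genotypes and 32 (0.742%) lower. Of the 201 higher genes of all T cells, 150 were compared here, 28 were again 2-fold higher and 113 had a higher value in both genotypes. Of the 86 lower genes only 16 were compared, of which 10 were again 2-fold lower and 15 had a lower value. Without barcodes over 30000 UMIs, 34 and 24 genes of 3902 were called, among them 17 of the 201 and 7 of the 86.

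Cytotoxic genes stayed higher among these cells. Of 20 compared genes of that list 9 were 2-fold higher in both genotypes, with medians of 1.17 in WT and 0.93 in KO against 0.03 and 0.12 for all genes. Without barcodes over 30000 UMIs, 5 of 19 were called (Tbx21, Nkg7, Cxcr3, Fasl and Il18rap). Gzmk then had too few UMIs to be compared, at ratios of 2.46 and 2.48. Tbx21 was at 62.1, 260, 23.4 and 106 CPM in the gate in WT SC, WT IP, KO SC and KO IP, with ratios of 2.06 (1.61 to 2.53) and 2.17 (1.61 to 2.79). Cxcr3 had 2.12 (1.46 to 2.86) and 3.33 (2.50 to 4.36). Fgl2 had 1.78 and 1.69. Itga4 had 1.68 (1.35 to 2.02) and 3.46 (2.96 to 4.02).

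The memory list had 0 of 20 genes called in this gate, with medians of -0.10 and 0.37. S100a4, which chose these cells, is a member of that list, so its count here is not comparable with that of other lists. In WT T cells without an S100a4 UMI, S100a6 (3.04), Itgb1 (1.85) and Crip1 (1.35) were still higher in IP. Not every member was, as Capg had -2.13 (-4.19 to -0.91). KO IP had 27 such cells, too few to compare. Among the T cells with an S100a4 UMI, Lef1 had -0.24 and 0.16, both with intervals that held 0. Klf2 had -1.89 in WT and -0.26 in KO, where the interval held 0 (-0.62 to 0.09). Rgs10 (-1.75 and -1.63), Satb1 (-1.02 and -1.25) and Ccr7 (-1.86 and -4.06) stayed lower in both genotypes.

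Itgae had its largest ratios here. It was at 88.4 CPM in WT SC (84 UMIs), 5.73 in WT IP (3 UMIs), 149 in KO SC (236 UMIs) and 11.8 in KO IP (9 UMIs). The ratios were -3.73 (-6.25 to -2.35) and -3.58 (-4.81 to -2.71), and -3.58 and -3.45 without barcodes over 30000 UMIs. Areg, the repair factor amphiregulin, was at 100, 21, 528 and 60.4 CPM, with ratios of -2.19 (-3.30 to -1.35) and -3.11 (-3.59 to -2.70). Ccr6, a receptor of type 17 cells, had -3.92 and -1.81. Foxp3 was at 52.6, 0, 49.4 and 22.3 CPM and Ctla4 at 526, 250, 614 and 215, with Ctla4 ratios of -1.07 and -1.51. Areg and Ccr6 were 2-fold lower in both genotypes also without barcodes over 30000 UMIs, while Ctla4 was then at -0.82 in WT.

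**Figure D5:**
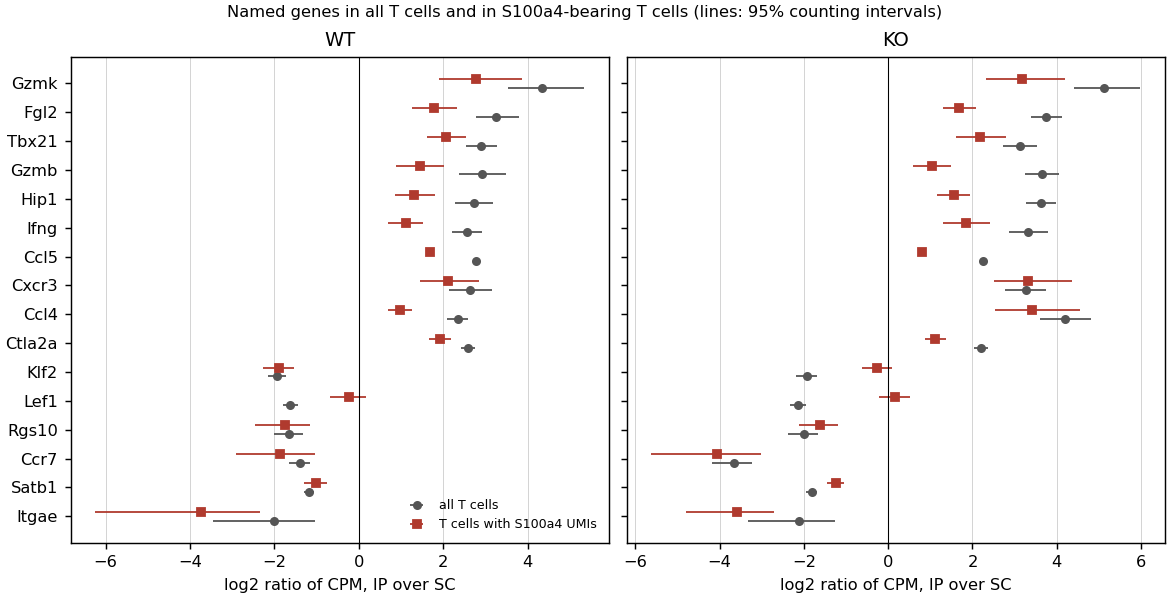
Log2 ratios of IP over SC with 95% counting intervals are shown for the named genes compared in both settings, for all T cells (grey circles) and for T cells with S100a4 UMIs (red squares), WT on the left and KO on the right. Tbx21 stays at 2.06 and 2.17 within the gate, Lef1 comes to -0.24 and 0.16, and Itgae lies at -3.73 and -3.58.

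Stromal barcodes of the same libraries, which held at least 2 UMIs of Dcn and none of the CD3 genes, were compared in the same way. Of 9615 genes compared in them, 381 (3.96%) were at least 2-fold higher in IP in both genotypes and 295 (3.07%) lower. Of the 201 higher genes of T cells 127 were compared there and 9 were called the same way, with medians of -0.03 and 0.12. Of the 86 lower genes 53 were compared and 3 called. The 9 were Tmem176a, Tmem176b, Adam12, Palld, Serpinb6b, Atxn1, Myo1f, Arhgap26 and Entpd1, and the 3 were Il6ra, Cxcl10 and Itm2a. Rgs10 and Actn1, lower in visceral T cells, were at least 2-fold higher in visceral stromal barcodes.

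Genotype was set beside depot with the same rule. In T cells, 12 genes (0.156%) were at least 2-fold higher in KO than in WT in both depots and 25 (0.325%) lower, of 7684. Of the 24 named genes, 21 differed by less than 2-fold between genotypes in SC, with Tbx21, Ifng and Ccl4 as the exceptions, and 19 did in IP, with Ccl4, Igfbp4, St8sia6, Ccr7 and Nsg2 as the exceptions. The matching share of all compared genes in a single depot is not given, so these counts do not set the named genes apart from other genes. The ranking admitted only genes with the same IP over SC direction in WT and in KO, so their shared direction is not a result.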

How the data were processed

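Stromal/vascular cells of adipose tissue were profiled in 4 libraries made with 10x Genomics 3' chemistry. The labels name both cells and nuclei as loaded. Each deposited table gave whole UMI counts for every gene in every barcode. The authors produced them in Cell Ranger, and the headers state version 7.0.0. The submitters' processing notes also name STAR 2.6 and mm10. Whether intronic reads were counted, and how barcodes were called as cells, is not given in the sources used here. Intronic reads, where counted, raise long genes, and near-identical gene copies can lose or exchange reads. The tables held 32290 features, of which 5 were reporters.

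With 1 library per group no test was run. UMIs were summed over the T cells of each library and scaled to CPM of that sum. Log2 ratios used 0.5 added UMI and carried exact conditional binomial 95% intervals. These and the Clopper-Pearson intervals of shares cover counting error only. Cells of a library are not replicates of a depot, so overlap of intervals says nothing of differences between mice. A count of 0 was taken to allow 3 counts. Genes needed 50 UMIs in each genotype. Named genes were the 12 higher and 12 lower genes whose interval bound nearest to 0, the smaller of WT and KO, was largest, and members of the gene lists that were called or define a list. Markers of other cells and reporter, ribosomal, mitochondrially encoded, immunoglobulin, haemoglobin, sex-linked and receptor segment genes were left out of the ranking. Tert and unnamed gene models were also left out. Members and lists were chosen with earlier results of these data known. The naive and experienced gates and some lists hold fewer genes than planned, a change made after the data were seen, and the genes left out are not reported here. Coordinates came from the GENCODE annotation of GRCm38 by gene identifier (32235 matched), and promoters from RefSeq on GRCm38.p6, by symbol.

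Scrublet (scanpy 1.11.5), run with 5% doublets expected, marked 23 of 4136 kept barcodes as doublets (0.556%), 7 of them T cells. These stayed in and were left out in an alternative. Poisson counts simulated for 7555 genes, without variation between cells or libraries, checked the arithmetic of the ratios. The intervals assume this model, and 95.9% of WT and 96.5% of KO intervals held the true value. Genes changed by 2 or -2 on the log2 scale were called in 100% and 93.8%. Those changed by 1.5 or -1.5 were called in 98% and 79.2%, so lower genes were missed more often. Coverage under variation between cells or libraries was not tested. Scripts ran under Python 3.11.15 with scipy 1.17.1, numpy 2.4.6 and pandas 2.3.3.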

Additional observations from a re-analysis of the deposited data

Results flagged for a closer look

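For 3 genes of the lists the IP over SC difference was at least 2-fold in opposite directions in WT and KO. The difference between genotypes was not tested. Hspa1a and Hspa1b, which encode the inducible heat shock protein HSP70, had log2 ratios of -1.41 and -1.56 in WT and 1.95 and 1.85 in KO. Hspa1a was at 632 CPM in WT SC, 238 in WT IP, 28.2 in KO SC and 108 in KO IP. Hspa1b was at 492, 166, 29 and 104 CPM. The WT SC library was the highest and KO SC the lowest for both genes, and leaving out barcodes over 30000 UMIs gave -1.52 and 2.08 for Hspa1a and -1.68 and 1.98 for Hspa1b. Rrm2, a ribonucleotide reductase subunit of dividing cells, had -1.12 in WT and 1.02 in KO. Without barcodes over 30000 UMIs it had 0.73 and -0.60, so those barcodes set its direction in both genotypes.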

How the results depend on the processing

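No paired analysis was possible because each group had 1 library and no test was run. The 201 higher and 86 lower genes became 338 and 134 with a minimum of 20 UMIs, 138 and 52 with 100 UMIs, 1354 and 250 with no minimum, and 136 and 32 with a mean of at least 25 CPM. They became 218 and 53 with 2 UMIs added, and 88 and 38 with cells thinned to 2000 UMIs. Leaving out barcodes with more than 2 UMIs of other lineages gave 104 and 32. That setting kept 83 T cells in WT SC and 41 in WT IP. The thinned and the lineage setting left 3229 and 2806 genes to compare, and shared 61 and 17, and 61 and 14, of their calls with the original ones. The remaining settings stayed within 1.5 times of both counts. Leaving out barcodes over 30000 UMIs, an alternative added after the data were seen, gave 211 and 87, of which 185 and 69 were shared with the original calls. Requiring a T cell receptor constant gene and no Ncr1 or Klrb1c UMI kept 91 T cells in WT IP and 86 in KO IP. It gave 196 and 75 genes, of which 158 and 63 were shared with the original calls. With other lineages left out, the log2 share ratio was 0.12 for the gamma delta gate in WT, 1.02 for the experienced gate in WT and -3.17 for the naive gate in KO. Without thinning, the effector gate gave 0.83 in WT and 0.43 in KO. The CD4 ratio, whose interval held 0, changed sign without thinning (-0.03 in WT and -0.30 in KO) and at 1000 UMIs in KO (-1.66), as did the gate of cells with both CD4 and CD8 without thinning (-2.41 and -0.05). The naive, experienced, effector, gamma delta and CD8 ratios and the named gene ratios kept their sign. Not all named genes stayed beyond 2-fold in every setting. The WT ratio of Ccl4 came down to 0.82, and the KO ratio of St8sia1 came to -0.7. Visceral T cell sums of 920934 and 960362 UMIs limit the precision of low genes, and differences between mice cannot be seen.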

Other observations

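Some genes called in all T cells belong to groups that the lists did not cover, and they were picked after their values were seen. A cluster of serine protease inhibitors on chromosome 13 (Serpinb1a, Serpinb6b and Serpinb9) was higher in IP in both genotypes. Serpinb6b was also higher in visceral stromal barcodes, with log2 ratios of 3.21 and 5.47. Higher in IP too were the cysteine protease inhibitors Ctla2a and Ctla2b. The drug transporter genes Abcb1a and Abcb1b, which lie side by side on chromosome 5, were higher as well. Among the lower genes were Id3, Sox4 and Tcf7l2, transcription factors of T cell development. Cd74, Cd86, H2-Oa, H2-Ob and Ighm, genes of antigen-presenting and B cells, were also lower, beside the lower summed levels of the B cell and dendritic markers in visceral T cells. Their part in these calls was not tested.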
